A study of Mus musculus with 17 samples.

Results

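The difference between 2 genotypes in how mouse embryonic stem cells respond to 7 days of 2i was measured gene by gene, as the day 7 response of RNAPII-mut cells minus the day 7 response of WT cells. RNAPII-mut cells (the mutant from here on) are E14 cells labelled slow/slow, which carry an RNA polymerase II that elongates slowly, and WT cells are E14 cells with the unmodified polymerase. Every culture grew feeder-free on gelatine in 10% serum and 1000 U/mL LIF, and day 7 cultures had in addition received 1 uM PD0325901 and 3 uM CHIR99021 for 7 days, whereas day 0 cultures had received neither. The comparison used 8 of the 17 libraries of the series, 2 each of mutant day 7, mutant day 0, WT day 7 and WT day 0. The labels name 1 line of each genotype, so that effects of the mutation and of its line cannot be told apart, and they do not say whether replicates came from separate cultures, so that p-values measure the spread between these libraries. A response is a log2 fold change of day 7 over day 0, and a difference is positive where the mutant's response was the more upward one.

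PD0325901 inhibits MEK and so shuts off signalling through ERK, and CHIR99021 inhibits GSK3 and so stabilises beta-catenin, the effector of Wnt signalling. Together they hold mouse embryonic stem cells in naive pluripotency, the state of the early epiblast, in which genes such as Nanog, Tfcp2l1, Klf4 and Prdm14 are high and genes of the post-implantation epiblast and the de novo DNA methyltransferases are low. Serum and LIF alone keep a mixture of naive and more advanced cells. RNA polymerase II speed is known to affect splicing and the time needed to complete long transcripts.

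The 17 libraries held 47350441 to 56138844 counts. Replicates lay closer together in the mutant than in WT. The median absolute log2 difference between replicates was 0.203 in mutant day 7 and 0.195 in mutant day 0, against 0.386 in WT day 7 and 0.324 in WT day 0. The WT day 0 libraries stood apart from each other. WT day 0 replicate 1 had a summed 215 CPM (counts scaled to library size) of mesoderm and primitive streak markers and 758 CPM of trophoblast and simple epithelium markers, whereas the other 7 libraries had 17.6 to 61.2 and 126 to 370 CPM. The smooth muscle actin gene Acta2 was at 151 CPM in that library and at 0.101 CPM in WT day 0 replicate 2, while Gata6, which marks primitive endoderm, was at 1.24 and 28.2 CPM in replicates 1 and 2. The summed naive markers were 4460 and 6430 CPM in WT day 0 and 6800 to 10500 CPM in the other 6 libraries, so that the markers of the labelled cell type were present in all 8. The WT replicate numbers ran as a series over the days, Sox17 of primitive endoderm being at 0.259 and 9.67 CPM in WT day 7 replicates 1 and 2 and at 0.369 and 8.73 CPM in those of WT day 0. The part of these WT day 0 levels in the results below was not tested beyond the values without each library. In bulk RNA, fewer cells of a type and less RNA per cell cannot be told apart.

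No gene had a difference in response that passed a Benjamini-Hochberg adjusted p of 0.05 in edgeR's quasi-likelihood test (0 of 15365 genes tested, 0%). The smallest adjusted p was 0.263, and 1178 genes (7.67%) were at an unadjusted p under 0.05, with 554 (3.61%) higher and 624 (4.06%) lower in the mutant. DESeq2 called 71 genes, 39 higher and 32 lower, and edgeR with a term for the WT replicate number called 14, 9 higher and 5 lower. Each genotype on its own had a large response, with 2176 genes (14.2%) called in the mutant and 1955 (12.7%) in WT, against 3857 and 4007 with the term for the WT replicate number. In the mutant 1107 genes (7.2%) rose and 1069 (6.96%) fell at day 7, while WT had 1017 genes (6.62%) that rose and 938 (6.1%) that fell.

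The responses of both genotypes ran mostly the same way. Of the genes called, 1118 were called in both, which is 51.4% of the mutant's calls and 57.2% of those of WT, and 1117 of these moved in the same direction, 565 up and 552 down. Across all genes tested, Pearson's r between the responses was 0.689, and 0.751 over the 12617 genes of at least 1 CPM. These are descriptions over genes, which are not independent replicates, and the responses share no library. Among the 1117 genes, the response was larger in the mutant for 659 and smaller for 458, with a median absolute log2 response of 2.29 in the mutant and 2.09 in WT. For 88 of those called in both, or 7.88%, the difference had an unadjusted p under 0.05, close to the 7.67% among all genes. The interquartile range of all responses was 0.95 in the mutant and 1.01 in WT on the log2 scale.

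**Figure D1:**
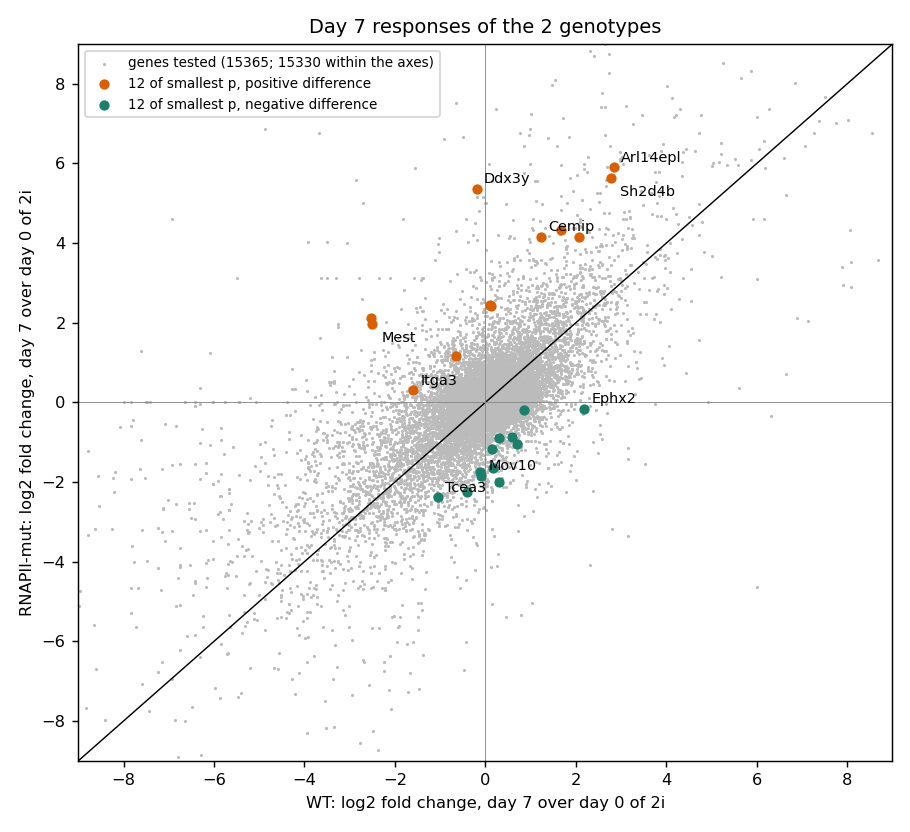
Log2 fold change at day 7 over day 0 of 2i in RNAPII-mut (vertical axis) and WT (horizontal axis), 1 point per gene; the line marks equal responses, and colours mark the 12 genes of smallest unadjusted p in each direction of the difference. The cloud follows the line, and the coloured genes lie off it on both sides, with Mest and Ddx3y far above it.

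The genes described next come from the 24 of smallest unadjusted p in each direction among genes with a group mean of at least 5 CPM, 12 with a positive and 12 with a negative difference. Their adjusted p-values in edgeR's quasi-likelihood test for the difference were 0.263 to 0.352, so that none is called, and they are given as values. With the term for the WT replicate number 9 of the 24 were called, among them Mest and Cemip (adjusted p = 0.0113 each, edgeR), Ddx3y, Dmrt1 and Ano9 (0.0329 each), and Mdfic, Arl14epl and Ephx2 (0.0403 each). In all 24 the 4 ratios of a single day 7 to a single day 0 library did not overlap between genotypes, and neither did those of 27.7% of all genes tested.

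Mest, which is imprinted so that the paternal copy alone is active (GRCm38 chr6:30723547-30748465), had the smallest p. It was at 0.591 and 1.24 CPM in mutant day 7 and 0.241 and 0.219 CPM in mutant day 0, against 26.5 and 12.3 CPM in WT day 7 and 116 and 104 CPM in WT day 0. All mutant libraries lay below all WT libraries, and the levels moved in opposite directions, up in the mutant and down in WT. The gene rose in the mutant (log2 1.98, adjusted p = 0.036, edgeR) and fell in WT (log2 -2.50, adjusted p = 0.00565), a difference of 4.48 (95% interval 2.90 to 6.06, unadjusted p = 3.73e-05 in the fit across all genes). Copg2, a coatomer subunit gene that overlaps the end of Mest on the other strand, was at 87.3 and 77.3 CPM in mutant day 7 and 51.0 and 59.6 CPM in mutant day 0, against 85.9 and 81.2 CPM in WT day 7 and 46.6 and 42.7 CPM in WT day 0. It rose in both genotypes, with one of the narrowest intervals of any gene called in both (difference -0.33, 95% interval -0.78 to 0.12). Strand handling in the counting is not given in the sources used here, so reads where the pair overlaps cannot be assigned.

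Itga3, an integrin alpha chain gene, fell in WT (log2 -1.59, adjusted p = 0.00386, edgeR) and had 0.31 in the mutant. Itga3 was at 41.5 and 57.3 CPM in mutant day 7 and 36.9 and 42.6 CPM in mutant day 0, against 36.5 and 67.4 CPM in WT day 7 and 179 and 134 CPM in WT day 0. Only WT day 0 stood above the other groups, and the difference was 1.91 (95% interval 1.08 to 2.73).

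The next group rose in both genotypes, from a lower day 0 level in the mutant. Mdfic, which encodes an inhibitor of MyoD-family transcription factors, was at 26.2 and 25.0 CPM in mutant day 7 and 1.24 and 1.31 CPM in mutant day 0, against 18.2 and 14.5 CPM in WT day 7 and 6.97 and 3.25 CPM in WT day 0. It rose by log2 4.32 in the mutant and 1.68 in WT (adjusted p = 5.33e-05 and 0.00647, edgeR), and the difference was 2.64 (95% interval 1.67 to 3.62). Mdfic was the 1 gene called for the difference when WT day 0 replicate 2 was left out (adjusted p = 0.0405, edgeR). Sh2d4b, an SH2-domain gene, was at 13.8 and 16.1 CPM in mutant day 7 and 0.381 and 0.219 CPM in mutant day 0, against 16.9 and 17.1 CPM in WT day 7 and 2.88 and 2.10 CPM in WT day 0. The genotypes ended at similar levels, with a rise of log2 5.63 in the mutant and 2.77 in WT. Arl14epl and Atp2b4, a plasma membrane calcium pump gene, had responses of 5.91 and 4.15 in the mutant against 2.84 and 2.06 in WT. In both of these genes the mutant libraries lay below those of WT at day 0 and above them at day 7.

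Cemip, which encodes a protein of hyaluronan breakdown, was the one gene of this direction whose genotype gap was wider at day 7. It was at 54.1 and 50.2 CPM in mutant day 7 and 2.49 and 3.32 CPM in mutant day 0, against 11.8 and 14.1 CPM in WT day 7 and 4.22 and 6.77 CPM in WT day 0. It rose in the mutant (log2 4.16, adjusted p = 0.00014, edgeR), while its WT value missed the threshold (log2 1.24, adjusted p = 0.0516). Adamts7, an extracellular protease gene, rose in the mutant to 13.3 and 18.9 CPM at day 7, against 2.57 and 3.36 CPM at day 0, and was at 11.8 and 17.5 CPM in WT day 7 and 15.2 and 11.9 CPM in WT day 0. Heg1, a membrane receptor gene of endothelial junctions, had the same shape with responses of 2.42 in the mutant and 0.12 in WT, and Synj2, a phosphoinositide phosphatase gene, had 1.17 and -0.65. The genotypes lay closer at day 7 than at day 0 in 11 of the 12 genes with a positive difference and in 6 of the 12 with a negative one, counts that describe the values by which the genes were chosen.

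Ddx3y, an RNA helicase gene on the Y chromosome, was nearly absent from the mutant at day 0. It had 68 and 114 counts in mutant day 7 and 0 and 4 counts in mutant day 0, or 1.26 and 2.07 CPM against 0 and 0.073 CPM, while WT had 32.8 and 11.5 CPM at day 7 and 24.9 and 25.9 CPM at day 0. The mutant thus rose (log2 5.37, adjusted p = 0.00365, edgeR) but stayed below every WT library. The Y-linked genes Uty, at 0.185 and 0.291 CPM in mutant day 7 and 0.201 and 0.073 CPM in mutant day 0, and Eif2s3y, at 2.62 and 1.89 against 0.682 and 3.80 CPM, were looked up after the value of Ddx3y was seen. In WT, Uty was at 21.4 and 6.46 CPM at day 7 and 21.4 and 16.5 CPM at day 0. Eif2s3y was at 125 and 63 CPM in WT day 7 and 69 and 61.1 CPM in WT day 0. All mutant libraries thus lay below all WT libraries in both genes. Neither Uty nor Eif2s3y passed the test for a response in the mutant. All 3 have related copies on the X chromosome, with which reads can be shared.

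Among the 12 genes with a negative difference, most fell in the mutant while WT stayed near its day 0 level. Mov10, an RNA helicase gene of retroelement silencing, was at 98.2 and 102 CPM in mutant day 7 and 342 and 373 CPM in mutant day 0, against 207 and 170 CPM in WT day 7 and 175 and 226 CPM in WT day 0. The mutant fell (log2 -1.84, adjusted p = 0.000433, edgeR), the WT libraries of both days overlapped, and the difference was -1.75 (95% interval -2.43 to -1.07). Dmrt1, a transcription factor gene of gonads and germ cells, was at 14.4 and 9.92 CPM in mutant day 7 and 36.1 and 40.1 CPM in mutant day 0, against 27.3 and 26.9 CPM in WT day 7 and 25.3 and 22.8 CPM in WT day 0. Its difference was -1.82 (95% interval -2.52 to -1.12). Miip, an inhibitor of cell migration, was at 20.5 and 18.4 CPM in mutant day 7 and 94.7 and 92.1 CPM in mutant day 0, against 25.5 and 24.0 CPM in WT day 7 and 39.5 and 26.4 CPM in WT day 0, so that the mutant had started above WT and ended near it. Atp6v0a4, a proton pump subunit gene, Znrf1, a ubiquitin ligase gene, Pnpla7, a lysophospholipase gene, and Evl, an actin regulator gene, fell by 1.99, 1.17, 1.74 and 0.90 on the log2 scale in the mutant, and their WT responses lay between -0.11 and 0.31. Tcea3, a form of the elongation factor TFIIS, which rescues stalled RNA polymerase II, fell in both genotypes (log2 -2.38 in the mutant and -1.05 in WT). It was at 32.7 and 37.5 CPM in mutant day 7 and 213 and 152 CPM in mutant day 0, against 51.1 and 41.1 CPM in WT day 7 and 94.7 and 96.9 CPM in WT day 0.

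In a smaller set WT rose. Ephx2, the soluble epoxide hydrolase gene (GRCm38 chr14:66084374-66124500), was at 22.1 and 17 CPM in mutant day 7 and 19.2 and 24.5 CPM in mutant day 0, against 115 and 117 CPM in WT day 7 and 30.3 and 20.7 CPM in WT day 0. Only WT day 7 stood apart, with a WT rise of log2 2.18 (adjusted p = 0.00107, edgeR) against -0.16 in the mutant, and a difference of -2.34 (95% interval -3.22 to -1.46). Thap4 also rose in WT, to 84.7 and 86.3 CPM at day 7 against 50.3 and 44.8 CPM at day 0, and was at 62.2 and 68.2 CPM in mutant day 7 and 74.4 and 75.7 CPM in mutant day 0. Ano9, a scramblase family gene, and Dock6, a guanine nucleotide exchange factor gene, moved in opposite directions, with responses of -1.05 and -0.88 in the mutant and 0.69 and 0.59 in WT, of which those of the mutant passed the test. The difference between genotypes in the response since day 0 was -0.75 at day 1, -1.38 at day 2 and -2.34 at day 7 for Ephx2, and 1.12, 2.11 and 2.64 for Mdfic, whereas for Mov10 it was -0.14, -0.67 and -1.75.

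**Figure D2:**
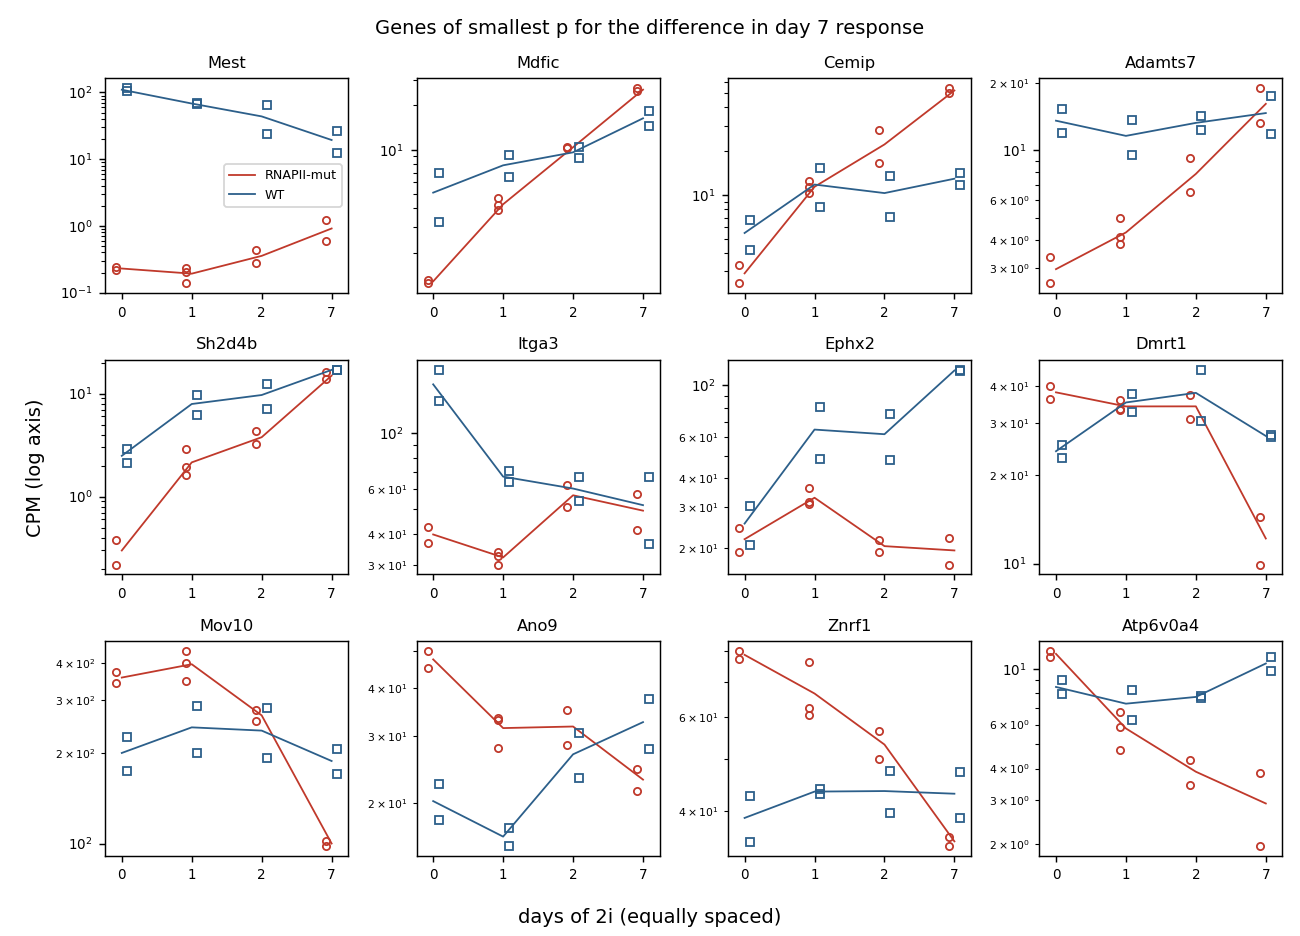
CPM on a log axis at 0, 1, 2 and 7 days of 2i, equally spaced, for the 6 genes of smallest p with a positive difference and the 6 with a negative one; open symbols are single libraries and lines join group means, RNAPII-mut in red and WT in blue. In Sh2d4b and Itga3 the genotypes are apart at day 0 and close at day 7, and in Mdfic RNAPII-mut goes from below WT to above it. Mest stays apart by a large gap, and Ephx2 separates as WT rises.

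Of 22 ERK targets and feedback genes, 11 fell in the mutant and 10 in WT, beside 6.96% and 6.1% of all genes, and none rose in either. The ERK feedback inhibitor gene Spry4 was at 1.11 and 1.27 CPM in mutant day 7 and 236 and 276 CPM in mutant day 0, against 1.18 and 1.16 CPM in WT day 7 and 105 and 303 CPM in WT day 0. The genotypes reached the same floor, and the difference was -0.30 with a 95% interval of -3.25 to 2.64. Dusp6, a phosphatase gene that acts on ERK, had a difference of -0.62 (95% interval -2.98 to 1.74), and Myc 0.70 (-1.16 to 2.56). Of 20 Wnt and beta-catenin targets, 3 rose and 1 fell in the mutant and 4 rose and 1 fell in WT, beside the 7.2% and 6.62% of all genes that rose. Among the members that passed in neither genotype were Lef1, with responses of -2.72 in the mutant and -1.72 in WT, Sp5 with 3.76 and 1.81, and Cdx2 with 3.58 and 1.22. Axin2, a feedback inhibitor, was at 105 and 94.5 CPM in mutant day 7 and 19 and 15.4 CPM in mutant day 0, against 168 and 66.5 CPM in WT day 7 and 44.3 and 24.2 CPM in WT day 0. Axin2 rose in both, as did the homeobox gene Cdx1 (log2 4.48 in the mutant and 4.25 in WT), and the differences were 0.76 (95% interval -0.70 to 2.22) and 0.23 (-1.34 to 1.80). These intervals exceed 2-fold on at least one side, so that a moderate difference was not detectable at this replication.

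Of 19 naive pluripotency genes, 4 rose and 2 fell in the mutant, beside 7.2% and 6.96% of all genes. In WT 6 rose and 2 fell, beside 6.62% and 6.1%, and 0 were called for the difference. Nanog was at 799 and 705 CPM in mutant day 7 and 281 and 213 CPM in mutant day 0, against 734 and 700 CPM in WT day 7 and 282 and 351 CPM in WT day 0. The genotypes overlapped at day 7, the mutant lay just below WT at day 0, and Nanog had a difference of 0.43 (95% interval -0.30 to 1.16). Tfcp2l1 had responses of 2.36 in the mutant and 2.05 in WT, Klf4 2.08 and 1.58, and Prdm14 1.56 and 2.05. Tdh, the threonine dehydrogenase gene on which mouse embryonic stem cells rely, and Klf2 rose in WT (log2 0.63 and 1.03) and had -0.09 and 0.23 in the mutant, which was higher than WT in both genes at day 0. Dppa4, a chromatin-associated gene of pluripotent cells, was at 63.8 and 69.3 CPM in mutant day 7 and 271 and 218 CPM in mutant day 0, against 71.9 and 76.5 CPM in WT day 7 and 131 and 162 CPM in WT day 0. It fell in both, by 1.88 on the log2 scale in the mutant and 0.98 in WT, with a difference of -0.90 (95% interval -1.43 to -0.37, unadjusted p = 0.00303 and adjusted p = 0.518, edgeR). The median difference over the 19 genes was -0.23, against 0.03 over all genes tested, and it was 0.15 or -0.66 when the first or second WT day 0 library was left out and -0.15 when WT day 7 replicate 1 was. Pou5f1 and Sox2, the core factors, had differences of -0.31 (95% interval -1.5 to 0.88) and -0.33 (-1.05 to 0.39).

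Of 22 formative and primed genes, 8 fell in the mutant and 9 in WT, beside 6.96% and 6.1% of all genes, and none rose. The 3 genes of de novo DNA methylation fell in both genotypes. Dnmt3l, the cofactor of the de novo DNA methyltransferases, was at 14.1 and 17.4 CPM in mutant day 7 and 433 and 274 CPM in mutant day 0, against 133 and 124 CPM in WT day 7 and 328 and 1030 CPM in WT day 0. The mutant libraries at day 7 lay below all others, the response was log2 -4.49 in the mutant and -2.40 in WT, and the difference was -2.09 (95% interval -3.48 to -0.70, unadjusted p = 0.0068 and adjusted p = 0.539, edgeR). The methyltransferase genes Dnmt3a and Dnmt3b had differences of 0.74 (95% interval -0.27 to 1.76) and 0.07 (-1.29 to 1.43), and the maintenance methyltransferase gene Dnmt1 had -0.11 (-0.64 to 0.41). Utf1, a chromatin factor gene of pluripotent cells, was at 21.7 and 26.4 CPM in mutant day 7 and 592 and 479 CPM in mutant day 0, against 52.4 and 54.4 CPM in WT day 7 and 302 and 511 CPM in WT day 0, a difference of -1.55 (95% interval -3.01 to -0.09). Of the formative and primed genes, Pou3f1 had responses of -4.37 in the mutant and -5.75 in WT, and Nodal, which did not pass in either, had 0.59 and 0.02. Fgf5 had 0 counts in all 4 day 7 libraries, so that its fall is known only as at least 72.7-fold in the mutant and at least 311-fold in WT, against a floor of 3 counts per group. The WT bound rests on WT day 0 replicate 1, at 17 CPM against 0.304 CPM in replicate 2.

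Id1, a target of BMP signalling that encodes an inhibitor of differentiation, fell in both genotypes. It was at 9.55 and 10.4 CPM in mutant day 7 and 82.2 and 90.2 CPM in mutant day 0, against 3.33 and 3.43 CPM in WT day 7 and 82.0 and 88.2 CPM in WT day 0. The genotypes started level, and mutant day 7 lay above WT day 7. The response was log2 -3.11 against -4.65 (adjusted p = 0.000129 and 7.26e-05, edgeR), and the difference was 1.54 (95% interval 0.64 to 2.44, unadjusted p = 0.00285 and adjusted p = 0.504). Id4 of the same family rose in both, with a difference of -0.64 (95% interval -1.60 to 0.32).

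**Figure D3:**
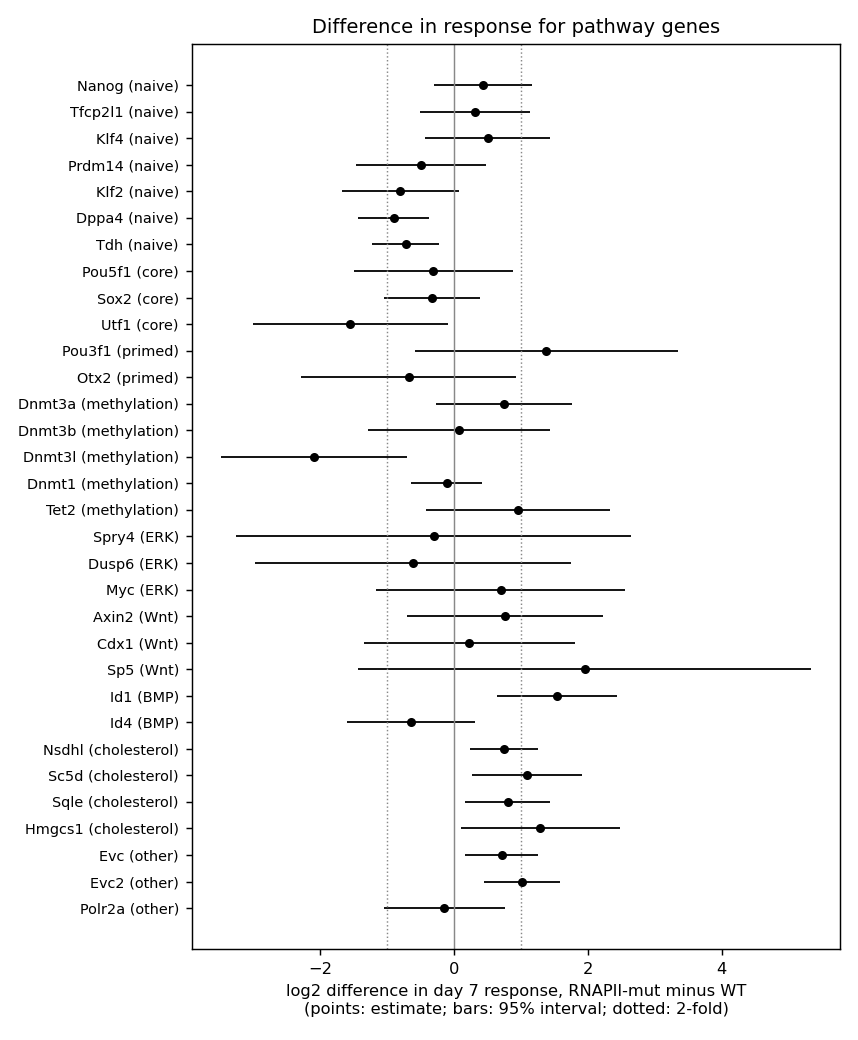
Difference in day 7 response, RNAPII-mut minus WT, on the log2 scale for genes of the pathways described, with 95% intervals; dotted lines mark 2-fold. Most intervals include 0, while those of Dppa4, Tdh, Utf1, Dnmt3l, Id1, Nsdhl, Sc5d, Sqle, Hmgcs1, Evc and Evc2 do not. None of these differences is called. Dppa4, Tdh, Id1, Nsdhl, Sc5d and Sqle are among the members of smallest unadjusted p for this same difference in their lists. Their intervals thus miss 0 in part through that choice.

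Evc and Evc2, neighbouring genes of primary cilia and hedgehog signalling that start 1597 bases apart and run in opposite directions, both had a positive difference. Evc2 was at 35.9 and 34.3 CPM in mutant day 7 and 53.3 and 51.0 CPM in mutant day 0, against 8.73 and 10.3 CPM in WT day 7 and 29.1 and 27.9 CPM in WT day 0. Evc was at 23.4 and 22.8 CPM in mutant day 7 and 55.4 and 53.2 CPM in mutant day 0, against 6.84 and 6.89 CPM in WT day 7 and 23.8 and 29.1 CPM in WT day 0. In both genes mutant libraries lay above WT libraries of the same day, and replicates were close. The responses of Evc2 were log2 -0.57 in the mutant and -1.59 in WT, a difference of 1.01 (95% interval 0.45 to 1.58, unadjusted p = 0.00187 and adjusted p = 0.459, edgeR), and those of Evc were -1.23 and -1.94, a difference of 0.71 (95% interval 0.16 to 1.26). At day 2 the difference was 0.17 for Evc2 and 0.01 for Evc. Because the pair moved together, the 250 bases before each start are shown from RefSeq on GRCm38.p6, Evc at chr5:37336882-37337131 on the minus strand and Evc2 at chr5:37338228-37338477 on the plus strand, 5′ to 3′. Capitals mark the longest run of letters the windows share, 13 bases, which reads as its reverse complement in the other gene.
Evc: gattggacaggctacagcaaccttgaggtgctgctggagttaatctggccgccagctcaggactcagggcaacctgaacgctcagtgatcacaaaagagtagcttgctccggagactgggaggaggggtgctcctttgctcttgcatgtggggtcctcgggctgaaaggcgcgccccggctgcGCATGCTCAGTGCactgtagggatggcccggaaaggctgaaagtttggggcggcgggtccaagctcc
Evc2: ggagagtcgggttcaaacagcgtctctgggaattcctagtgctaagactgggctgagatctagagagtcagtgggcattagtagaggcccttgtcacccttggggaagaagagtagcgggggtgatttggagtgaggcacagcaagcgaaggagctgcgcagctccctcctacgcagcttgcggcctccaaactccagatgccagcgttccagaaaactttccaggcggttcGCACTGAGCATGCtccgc
The run, GCATGCTCAGTGC on the strand of Evc and GCACTGAGCATGC on that of Evc2, was found after the sequences were compared. On either strand it occurs in 10 of 32544 promoter windows of 300 bases (0.0307%), each from 250 bases before to 50 after a start. The match describes these letters only.

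Among genes of cholesterol biosynthesis and uptake, 18 had a positive difference and 6 a negative one. Of 24, 7 rose in the mutant and 1 in WT, beside 7.2% and 6.62% of all genes, and 9 had an unadjusted p under 0.05 for the difference, all positive, beside 3.61% of all genes, while 0 were called. The median difference was 0.65 against 0.03 over all genes tested, and 0.35 without WT day 0 replicate 1. Nsdhl, a sterol dehydrogenase gene, was at 66.1 and 59.8 CPM in mutant day 7 and 37.9 and 37.1 CPM in mutant day 0, against 44.6 and 38.5 CPM in WT day 7 and 45.2 and 38.0 CPM in WT day 0. Only mutant day 7 stood above the rest, with a difference of 0.75 (95% interval 0.24 to 1.26). Sqle, the squalene epoxidase gene, and Sc5d, a sterol desaturase gene, rose in the mutant by log2 0.83 and 0.92 and had 0.03 and -0.17 in WT. Hmgcs1, an early enzyme of the pathway, had a difference of 1.29 (95% interval 0.10 to 2.48). Tm7sf2, the member that rose in WT (log2 1.34), had 0.544 in the mutant and a negative difference of -0.795 (95% interval -1.78 to 0.186).

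Genes of the 2-cell-like state, a rare and transient state of mouse embryonic stem cells, had a positive difference in 18 of 18 tested members, with a median of 2.24, which was 1.19 when WT day 0 replicate 2 was left out and 1.36 when replicate 2 of mutant day 7 was. In the mutant 7 rose and in WT 1 rose, beside 7.2% and 6.62% of all genes, and 0 were called for the difference. Zscan4f was at 1.37 and 2.36 CPM in mutant day 7 and 0.442 and 0.310 CPM in mutant day 0, against 1.18 and 0.993 CPM in WT day 7 and 1.54 and 1.22 CPM in WT day 0. The mutant lay below WT at day 0 and above it at day 7. Zscan4c, with a response of 2.24 in the mutant and -0.22 in WT, was below WT at day 0 and overlapped it at day 7. Pramel7, which promotes naive pluripotency, had 0 counts in mutant day 0 and 166 in mutant day 7, a rise of at least 53.0-fold, and was at 4.62 and 12.4 CPM in WT day 7 and 0.419 and 2.17 CPM in WT day 0. Many of these genes are near-identical copies, and reads can be shared among them, so that the members are not separate observations.

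Ribosomal protein genes had small differences of one sign. Of 44 cytosolic ribosomal protein genes, 43 had a negative difference, with a median response of -0.19 in the mutant and 0.62 in WT and a median difference of -0.71. None was called for the difference, while 8 had an unadjusted p under 0.05 for it, all negative, beside 4.06% of all genes. In the mutant 1 fell, beside 6.96% of all genes. In WT 0 passed the test in either direction, beside 6.62% of all genes that rose and 6.1% that fell. Rpl23 was at 208 and 185 CPM in mutant day 7 and 229 and 230 CPM in mutant day 0, against 194 and 231 CPM in WT day 7 and 138 and 126 CPM in WT day 0. WT day 0 stood below the other groups there. The summed CPM of the 44 genes was 36200 and 41800 in mutant day 7 and 40500 and 41800 in mutant day 0. It was 37400 and 52100 in WT day 7 and 27900 and 29400 in WT day 0. Replicates of this sum spread more widely at days 1 and 2. Day 1 had 73300, 53800 and 40700 in the mutant and 29500 and 47300 in WT. Day 2 had 34500 and 54800 in the mutant and 29000 and 50400 in WT. Of 37 oxidative phosphorylation genes, 33 were negative, with a median of -0.47. Without WT day 7 replicate 2 these medians were -0.43 and -0.19. After each library's trend on gene span was removed they were -0.38 and -0.23, and the part of gene length in them was not tested. Replication-dependent histone genes had a median of -1.15 over 28 tested members, and 3 fell in the mutant against 0 in WT, beside 6.96% and 6.1% of all genes. That median was -0.68 without WT day 7 replicate 2, and -0.75 with the trend on gene span removed or among genes of at least 1 CPM in 4 libraries. These histone genes were low, and most tested members had a mean under 1 CPM in every group. The 31 in the list summed to 23.7 and 35.6 CPM in mutant day 7 and 41 and 41 CPM in mutant day 0. The sums were 25.7 and 26.2 CPM in WT day 7 and 29.5 and 32.9 CPM in WT day 0. The median half-width of the intervals of their differences was 2.29, larger than the median difference in size, and 0 were called.

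**Figure D4:**
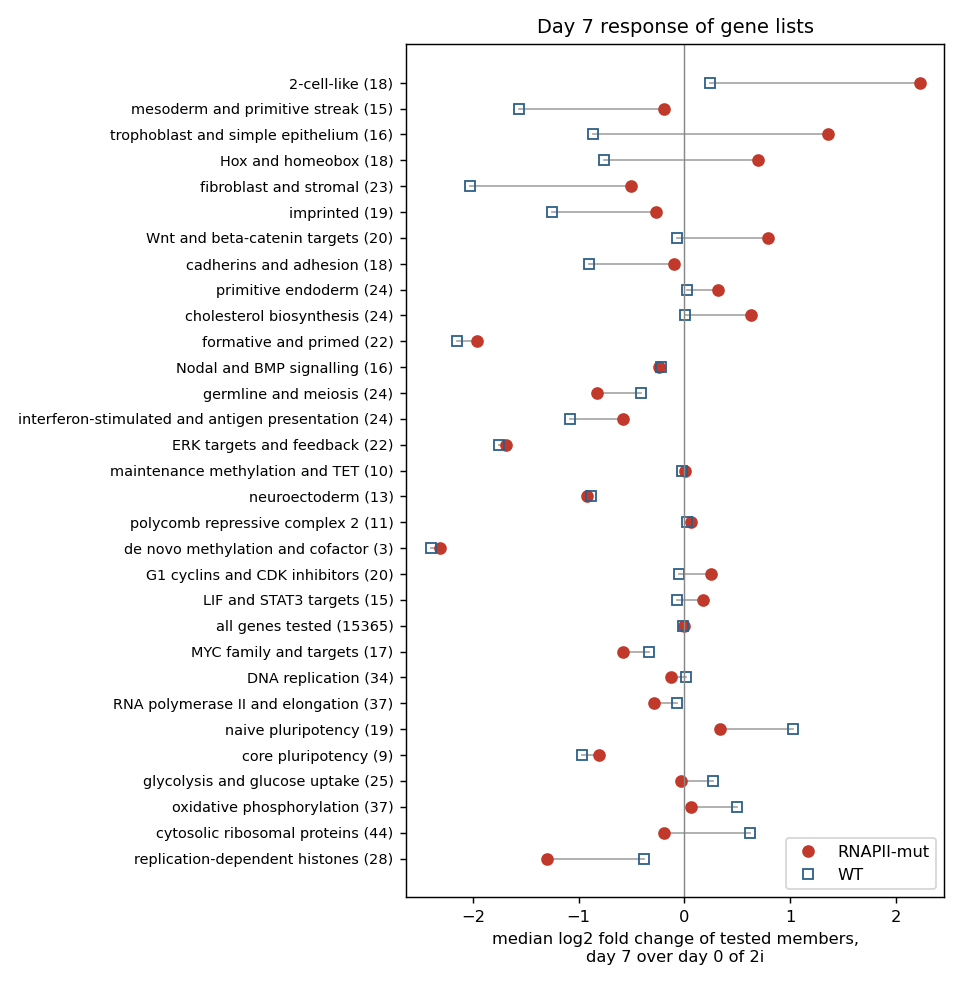
Median log2 fold change at day 7 over day 0 of 2i over the tested members of each gene list, with their number in brackets; filled red circles are RNAPII-mut, open blue squares WT, ordered from the most positive median difference at the top. ERK targets, formative and primed genes and de novo methylation genes lie far left in both genotypes, and 2-cell-like genes lie farthest right in RNAPII-mut.

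Lists of other lineages moved with single WT libraries of both days. The median difference was 1.95 for mesoderm and primitive streak genes and -0.07 without WT day 0 replicate 1, and for fibroblast and stromal genes it was 1.04 and -0.69. The fibroblast and stromal median was 1.83 without WT day 0 replicate 2 and 1.86 without WT day 7 replicate 2. The mesoderm gene T was at 29.5 and 16.6 CPM in mutant day 7 and 0.522 and 0.255 CPM in mutant day 0, against 34.7 and 3.88 CPM in WT day 7 and 113 and 0.203 CPM in WT day 0. Its difference of 7.45 became -0.66 without WT day 0 replicate 1, and that of Acta2 was -3.88 without it and 5.63 with it. For primitive endoderm genes the median was 0.65, against 1.01 and -1.24 without WT day 0 replicates 1 and 2 and 0.11 and 2.64 without WT day 7 replicates 1 and 2. Trophoblast and simple epithelium genes had a median of 1.70, 1.08 without WT day 0 replicate 1 and 1.12 with the term for the WT replicate number. Eomes, a transcription factor gene of trophoblast and mesendoderm, was at 16.1 and 13 CPM in mutant day 7 and 3.05 and 3.98 CPM in mutant day 0, against 11.4 and 3.97 CPM in WT day 7 and 28.2 and 4.26 CPM in WT day 0. Fst, the follistatin gene, was at 26.4 and 26.4 CPM in mutant day 7 and 0.843 and 1.35 CPM in mutant day 0, against 33.6 and 20.1 CPM in WT day 7 and 31.2 and 3.76 CPM in WT day 0. Its rise in the mutant passed the test (log2 4.58, adjusted p = 0.00298, edgeR), and its difference of 3.96 stayed between 1.75 and 4.8 when single libraries were left out.

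The largest responses shared by both genotypes had wide errors in their difference. Among the 6 largest mean rises, Tnni1, a troponin gene, was at 26.0 and 29.2 CPM in mutant day 7 and 0.241 and 0.182 CPM in mutant day 0, against 17.6 and 19.5 CPM in WT day 7 and 0 and 0.169 CPM in WT day 0. The difference was -0.73 with a 95% interval of -3.42 to 1.97. Crxos and Bhmt, the betaine-homocysteine methyltransferase gene, had responses of 8.14 and 8.53 in the mutant against 5.65 and 5.26 in WT, and intervals of the difference that include 0. Htr5a, a serotonin receptor gene, had 0 counts in mutant day 0, so that it rose at least 417-fold there. Among the largest falls, Spink1 was at 0.037 and 0.0727 CPM in mutant day 7 and 10.3 and 6.13 CPM in mutant day 0, against 0.111 and 0.225 CPM in WT day 7 and 9.68 and 11.9 CPM in WT day 0, a difference of -1.18 (95% interval -3.49 to 1.13). Tmem54 and Dgkk had 0 counts in mutant day 7, which makes their falls at least 215-fold and at least 40.3-fold in the mutant. At the other end, the narrowest intervals among genes called in both belonged to genes such as Cers2, a ceramide synthase gene, and Atp1b3, a sodium pump subunit gene. Cers2 was at 99.2 and 103 CPM in mutant day 7 and 68.8 and 63.2 CPM in mutant day 0, against 123 and 111 CPM in WT day 7 and 70.7 and 66.4 CPM in WT day 0. Its difference was -0.16 (95% interval -0.60 to 0.29), and that of Atp1b3 was 0.20 (-0.25 to 0.65), so that for these genes a 2-fold difference lies outside the interval.

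The limit of detection followed the level of expression. The median half-width of the 95% interval of a difference, on the log2 scale, was 2.93 for genes under 1 CPM, 1.54 at 1 to 10 CPM, 0.861 at 10 to 100 CPM and 0.689 at 100 CPM or more. Over the 15016 genes with an interval it was 1.09. For 3239 of these (21.6%) the whole interval lay within 2-fold, 48.6% of genes of 100 CPM or more and 0% of those under 1 CPM. For 63 of the 15016 genes the whole interval lay beyond 2-fold, 13 of them under 1 CPM and 31 at 1 to 10 CPM. A further 18 were at 10 to 100 CPM and 1 at 100 CPM or more. The intervals are not adjusted for the number of genes, and none of these differences is called. The smallest difference that a single gene would have needed to be called alone, given its error, had a median of 5.53-fold at 100 CPM or more, 8.49-fold at 10 to 100 CPM, 45.4-fold at 1 to 10 CPM and 1450-fold below 1 CPM. The median standard error of a response was 0.357 in each genotype, since all 17 libraries share 1 estimate of the spread, and that of the difference was 0.506. A further 349 tested genes had 0 counts in all libraries of at least 1 of the 4 groups, 160 in mutant day 7, 133 in mutant day 0, 120 in WT day 7 and 29 in WT day 0. Fold changes of such genes are bounded only by a floor of 3 counts, which is 0.0275 CPM in mutant day 7, 0.0287 in mutant day 0, 0.0279 in WT day 7 and 0.0252 in WT day 0, and which covers counting error only.

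**Figure D5:**
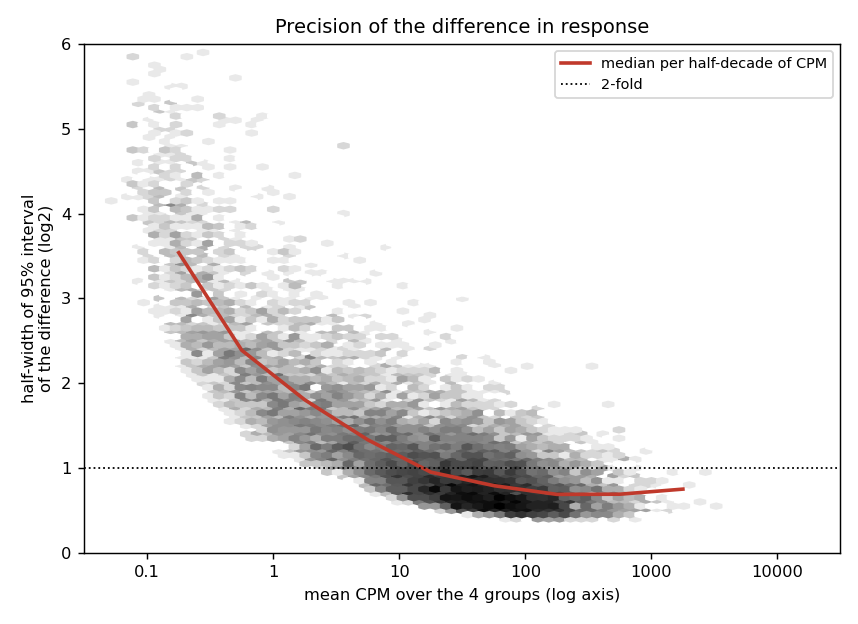
Half-width of the 95% interval of the difference in response (log2) against mean CPM over the 4 groups (log axis); darker cells hold more genes, the red line is the median per half-decade and the dotted line is 2-fold. The half-width falls with expression, and its median over all genes of 100 CPM or more was 0.689.

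Polr2a, which encodes the large subunit of RNA polymerase II, was at 601 and 746 CPM in mutant day 7 and 712 and 611 CPM in mutant day 0, against 885 and 556 CPM in WT day 7 and 584 and 697 CPM in WT day 0. All 4 groups overlapped, and the difference was -0.15 (95% interval -1.05 to 0.76). A change of amino acids in the protein would not show in this level, so it checks no label. Of 37 RNA polymerase II and elongation genes, 0 were called for the difference and 3 had an unadjusted p under 0.05, all negative, beside 4.06% of all genes. They were Tcea3 (-1.32), Ell3 (-0.98) and Nelfcd (-0.64), a subunit of the pausing factor NELF.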

How the data were processed

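Whole-number counts per gene were deposited by the authors in 1 table of 20621 gene symbols for 17 libraries, and 0 sample columns were left unused. STAR, deepTools and mm10 are named in the submitters' processing notes, without versions. How genes were counted (tool, annotation, strand, multi-mapped reads) is not given in the sources used here. Groups came from the sample titles.

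With edgeR 4.0.16 (R 4.3.3), TMM factors were computed, filterByExpr on the 8 groups kept 15365 genes, and 1 quasi-likelihood model with a coefficient per group was fitted to all 17 libraries (9 residual degrees of freedom, prior 3.96, common biological coefficient of variation 0.333). The contrast was mutant day 7 minus mutant day 0, minus the same in WT, two-sided, with Benjamini-Hochberg adjustment over all genes tested and a threshold of 0.05. The 95% intervals are Wald intervals with the squeezed quasi-dispersion at about 13 degrees of freedom; they and the SE are the error given for each difference. CPM use TMM-scaled library sizes. The ratios of single libraries used CPM plus 0.1. A group at 0 counts was replaced by 3 counts over the group for a bound.

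The rule named the 12 genes of smallest unadjusted p in each direction with a group mean of at least 5 CPM. It also named a fixed set of genes, and up to 4 members per list, those of smallest unadjusted p for the difference. The differences of such list members stand out in part through that choice. Genes called in both genotypes with the narrowest intervals or largest responses were named too, and symbols of predicted genes (541) were left out. Some genes that the rule names are not reported here. Uty and Eif2s3y are among the genes that fall outside this rule. Tm7sf2 and Lef1 were not among the members of smallest p in their lists. The comparison, the genes and the 30 gene lists were chosen with earlier results of these data known. Gene positions came from GENCODE M21 on GRCm38 (mm10), with a span for 20102 symbols (97.5%). The replicate numbers are shared between groups. Deviations of same-numbered libraries from their group means correlated at 0.236 to 0.744 over the 6 pairs of days in WT, all over 0.1, so that the numbers pair the WT libraries by the data, though no label says so. In the mutant they were -0.342 to 0.174, with 1 of 6 over 0.1, and the numbers do not pair its days. Across genotypes, the replicate 1 libraries of WT day 7 and mutant day 7 correlated at 0.344. WT day 0 correlated at 0.129 with mutant day 0 and 0.138 with mutant day 7, and WT day 7 at 0.0662 with mutant day 0. Whether a number marks a batch shared by the genotypes was not tested beyond the replicate block. Alternatives were DESeq2 1.42.0, 3 other scalings, no filter and a filter of 1 CPM in 4 libraries, a fit of the 8 libraries alone, the replicate number as a block in all libraries or in WT only (WT series term), a robust prior, offsets for a trend on gene span in each library, and leaving out libraries; the WT series term combined with span offsets or with the 8 libraries was chosen after seeing the data. The procedure was tested on simulated libraries, drawn independently and with the same spread in all groups. The simulation held no WT replicate series and no wider spread in WT, so it cannot speak to either.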

Additional observations from a re-analysis of the deposited data

How the results depend on the processing

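The count of genes called for the difference in response was 0 in the reported fit. It was 71 with DESeq2 (39 higher, 32 lower), 14 with the WT series term (9 higher, 5 lower), 25 with gene span offsets and the WT series term (14 higher, 11 lower) and 6 with the 8 libraries and the WT series term (5 higher, 1 lower). Leaving out single libraries gave 0 to 1, with 0 to 1 higher and 0 lower. It stayed at 0 with the other scalings, filters and priors, the 8 libraries alone, span offsets alone, and without WT replicate 1 of days 0 and 1. The replicate block gave 0 calls, 1466 genes at an unadjusted p under 0.05 and a smallest adjusted p of 0.145, against 1178 and 0.263. DESeq2 called all 24 of the genes of smallest p. The WT series term called 9 of them (among them Mest, Mdfic, Cemip, Ddx3y, Arl14epl, Ephx2, Dmrt1 and Ano9) with Cdh3, Elfn1, Ly6a, Smim3 and Zcwpw1. All 24 kept their sign in all 22 alternatives, which refit all or part of the libraries by which these genes were chosen.

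The count of called day 7 responses in the mutant, 2176 as reported, was 3292 with DESeq2, 3857 with the WT series term, 4218 with span offsets and the WT series term, and 3436 with the 8 libraries and the WT series term; leaving out single libraries gave 680 to 2301. In WT, 1955 as reported, it was 3197, 4007, 4418 and 3737 under those settings, 1220 without WT replicate 1 of days 0 and 1, and 742 to 1561 leaving out single libraries. The cause was not tested.

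Differences that changed sign were small or rested on 1 library; none of these genes was called. Without WT replicate 1 of days 0 and 1, Dnmt3b became -0.53, Spry4 0.27, Cdx1 -0.58, Sp5 -2.99, Fgf5 -2.71, Pou3f1 -0.54, T -0.66, Acta2 -3.87 and Tnni1 0.26. Leaving out single libraries gave ranges of -0.44 to 0.23 for Polr2a, -0.53 to 0.60 for Dnmt3b, -1.26 to 0.27 for Spry4, -0.58 to 0.75 for Cdx1, -2.99 to 2.97 for Sp5, -2.71 to 3.08 for Fgf5, -0.54 to 2.18 for Pou3f1, -0.92 to 5.69 for Gata6, -0.66 to 9.76 for T, -3.88 to 6.62 for Acta2, -5.91 to 0.26 for Tnni1, -1.62 to 2.18 for Tlx2 and -4.24 to 0.15 for Enpp2. With span offsets Sox2 was 0.03, Dnmt3b -0.03 and Cers2 0.03; with the WT series term added they were 0.09, -0.14 and 0.03, and Tlx2 was -0.08. With the WT series term alone Dnmt3b was -0.03 and Tlx2 -0.55, and the replicate block gave -0.10 for Tlx2. With 2 libraries per group, a lone remaining library was taken to vary as other groups do. Library totals as the only scaling moved the median difference of all genes to 0.11, against 0.025 as reported.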

Other observations

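Values of genes outside the comparisons above are given without explanation. Ly6a, a surface antigen gene, was at 55.5 and 59.6 CPM in mutant day 7 and 0.281 and 0.292 CPM in mutant day 0, against 58.3 and 215 CPM in WT day 7 and 5.24 and 10.4 CPM in WT day 0. It rose in both genotypes (log2 7.64 and 4.13, adjusted p = 0.000871 and 0.0105, edgeR), from a lower day 0 level in the mutant. Elfn1 was at 1.07 and 1.64 CPM in mutant day 7 and 0.12 and 0.182 CPM in mutant day 0, against 0.148 and 0.337 CPM in WT day 7 and 0.335 and 0.947 CPM in WT day 0. It rose in the mutant (log2 3.14, adjusted p = 0.00567, edgeR) and had -1.39 in WT. Ly6a, Elfn1, Zcwpw1 and Smim3 were chosen after their values were seen, because the fit with the WT series term called them.

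Dazl, an RNA-binding protein gene of germ cells, was at 12.8 and 13.5 CPM in mutant day 7 and 2.33 and 2.15 CPM in mutant day 0, against 12.8 and 11.3 CPM in WT day 7 and 3.25 and 6.70 CPM in WT day 0. Syce2, a synaptonemal complex gene, was at 43.6 and 50.7 CPM in mutant day 7 and 107 and 93.4 CPM in mutant day 0, against 59.9 and 87.2 CPM in WT day 7 and 61.2 and 80.1 CPM in WT day 0. Dazl rose and Syce2 fell in the mutant (log2 2.55 and -1.08, adjusted p = 0.00178 and 0.0257, edgeR), and neither passed the test in WT. The differences were 1.27 (95% interval 0.07 to 2.48) and -1.14 (-2.02 to -0.26), with adjusted p = 0.647 and 0.605. Peg10, an imprinted gene derived from a retrotransposon, was at 321 and 312 CPM in mutant day 7 and 431 and 333 CPM in mutant day 0, against 88.2 and 142 CPM in WT day 7 and 808 and 660 CPM in WT day 0. It fell in WT (log2 -2.67, adjusted p = 0.0238, edgeR) and had -0.27 in the mutant.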
